A study of Solanum lycopersicum with 18 samples.

Results

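The 117 probe sets described here gave a high signal in green wild-type tomato fruit, lost at least 8-fold of it by the red-ripe age in wild type, and stayed within 2-fold of their starting signal in the ripening mutant rin. They were selected on measured values of this experiment. After the array's control probe sets were left out, signals under 32 were raised to 32, taken to log2 and averaged over the 3 arrays of each group. A probe set was a member when its wild-type mean at 45 DAP lay 3 or more log2 units below that at 35 DAP and its rin mean at 45 DAP lay within 1 log2 unit of that at 35 DAP. Of 10101 probe sets, 274 met the wild-type condition, and 117 of these met the condition on rin. Of the remainder, 153 were lower in rin too, by more than 1 log2 unit, and 4 were higher in rin by more than 1.

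Tomato ripening turns a hard, green, photosynthetic fruit wall into a soft, red one. Chloroplasts are converted to chromoplasts, chlorophyll and the proteins that bind it are lost, and enzymes that loosen and dissolve the cell wall are made. The transcription factor RIN, a MADS-box protein, is needed for most of this programme, and fruit of rin plants stays firm and does not turn red. Transcripts of green fruit that disappear during normal ripening are therefore a counterpart to the better known ripening genes.

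The measurements were made on pericarp, the fleshy wall of the fruit, of the tomato variety Pusa Ruby with the Affymetrix tomato array, which reports 1 intensity per probe set and array. The groups were rin mutant fruit at 35, 40 and 45 DAP and wild-type fruit at 35, 40 and 45 DAP, with 3 arrays each, 18 in all. The labels expand DAP as days after planting and give the ages the stages immature green, breaker and red-ripe in both genotypes, although rin fruit does not ripen normally. They number the plants of a group 1 to 3 as biological replicates, but codes in the titles recur across ages. Whether a code marks 1 plant sampled at several ages is not stated, and the fit took the 18 arrays as independent. The p-values cover the variation among these arrays, some of which may be technical. The labels' growth and treatment fields describe seedlings and shoot tissue instead of fruit, and the groups were taken from titles and characteristics alone.

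The genotype label was borne out by RIN itself, which had signals of at most 9.273 on all 9 rin arrays and of 62.5 to 6929 on the 9 wild-type arrays. Replicate arrays correlated with Pearson's r of 0.867 to 0.9914 across probe sets. The highest was that of rin replicates 2 and 3 at 45 DAP, which the rule used. With these 2 arrays averaged as 1, the rule gave 107 members. At 40 DAP 1 array stood furthest from its group on the leading principal component of the probe sets tested below. There rin replicate 1 lay at -7.35, against -55.0 and -54.0 for the other rin arrays. Wild-type replicate 1 at 40 DAP lay at 74.5, against 49.9 and 53.2 for its group. PG2, the polygalacturonase that dissolves pectin in ripe fruit, had signals of 914.6, 374.7 and 7.426 on rin replicates 1, 2 and 3 at 40 DAP, and the carotenoid enzyme Psy1 had 4062, 2079 and 1391. The log2 ratio of 3' over 5' control probe sets, a measure of RNA integrity, was 0.57 to 0.76 on the rin arrays at 40 DAP and 0.71 to 0.88 on the wild-type arrays. Among the arrays the rule used, rin replicate 2 at 35 DAP had the highest ratio, 2.1, against 0.51 and 1.04 for its group; without that array the rule gave 109 members, 102 of them among the 117. The part of these differences in the results below was not tested. A signal is relative to the total RNA hybridised, so fewer cells of a type and less RNA per cell cannot be told apart.

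The arrays at 35 and 45 DAP chose the members, so their values are given as a description. The median signal of the 117 members was 605.6, 720.9 and 665.4 on the 3 rin arrays at 35 DAP, 523.0, 726.5 and 754.8 at 40 DAP, and 362.4, 489.2 and 494.2 at 45 DAP. In wild type the median was 914.2, 922.7 and 850.8 at 35 DAP, 225.3, 185.2 and 230.7 at 40 DAP, and 28.15, 35.97 and 41.88 at 45 DAP. The wild-type arrays at 45 DAP all lay near the floor of 32, while no rin array had a median under 362.4. Across members the difference between 45 and 35 DAP ran from -0.99 to 0.93 in rin, with a median of -0.48, and from -8.15 to -3.004 in wild type, with a median of -3.75. Because of the floor, only a probe set with a wild-type mean of at least 8 log2 units at 35 DAP could become a member, and the lowest member lay at 8.04.

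**Figure D1:**
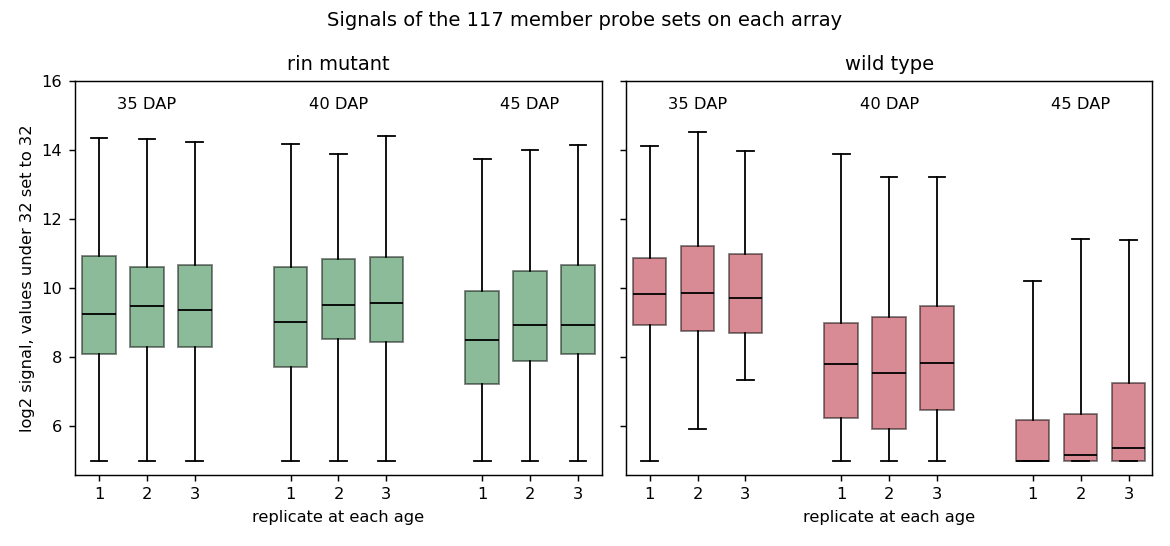
Log2 signals (signals under 32 set to 32) of the 117 members on each of the 9 rin arrays (left) and 9 wild-type arrays (right), by age in DAP and replicate. Boxes span the quartiles, lines mark medians and whiskers reach the lowest and highest member; the rin medians at 45 DAP (8.5 to 8.95) lie somewhat below those at 35 DAP (9.24 to 9.49), while the wild-type boxes step down at 40 and again at 45 DAP.

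Single arrays of rin did not all stay level. Set against the rin mean at 35 DAP, 21, 5 and 7 members lay more than 1 log2 unit below it on rin replicates 1, 2 and 3 at 40 DAP, and 40, 6 and 3 on those at 45 DAP. Replicate 1 was thus the lowest rin array at both later ages. In wild type, 85, 89 and 94 members lay that far below their own mean at 35 DAP on the 3 arrays at 40 DAP, and all 117 on each array at 45 DAP. The rin mean at 45 DAP was within 1 log2 unit of the wild-type mean at 35 DAP for 73.

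The thresholds cut through a continuous spread. Nearest to the wild-type limit of -3 were 2 unnamed members at -3.004 and -3.008, and 2 unnamed probe sets at -2.997 and -2.990 outside. At the lower limit for rin, Cry1b at -0.986 and an unnamed member at -0.971 were inside, and 2 unnamed probe sets at -1.001 and -1.011 outside. The upper limit for rin had more room, with an unnamed member at 0.930 and LOC543809 at 0.610 inside, and LOC778362 at 1.163 and an unnamed probe set at 1.171 outside.

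The 6 arrays at 40 DAP had no part in the choice, and rin against wild type at that age is the comparison that could be tested. The spread behind the test came from all 18 arrays, 12 of which the rule had used. By the rule, wild type fell and rin stayed level between the ages on either side, so an excess of members higher in rin was likely beforehand. At 40 DAP, when wild-type fruit was at the breaker stage, 61 of the 117 members were higher in rin and none was lower (limma with Benjamini-Hochberg adjustment over 7717 probe sets, adjusted p under 0.05). That is 52.1% of the members, against a background of 15.1% of all tested probe sets called higher in rin (1169 of 7717). In the other direction, 0 members stood against 10.8% of all tested probe sets (833 called lower). At an unadjusted p under 0.05 in the same fit, in either direction, 74 of 117 members differed, against 2988 of all 7717. With a fit on the 6 arrays at 40 DAP alone, 53 members were called higher, 49 of them among the 61, against 7.45% of all tested probe sets. All 117 members had passed the filter on dim probe sets. The rule made this likely, because members had to be bright in wild type at the youngest age. Members that were dim on every rin array, described below, passed the filter through wild-type arrays alone.

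The median difference, rin minus wild type, was 1.59 log2 units over the members, with quartiles of 0.58 and 2.63 and a range of -2.93 to 8.20. Over all tested probe sets the median was 0.07. The 3 rin arrays lay above the 3 wild-type arrays without overlap for 67 members, or 57.3%, against 21.7% of all tested probe sets. They lay below without overlap for 9 members, against 1416 of all 7717. Of these 9 members, 8 had a rin mean more than 1 log2 unit below wild type at 35 DAP already. The 153 probe sets that were also lower in rin at 45 DAP gave a median difference of 2.78 at 40 DAP. Of them 99, or 64.7%, were called higher, against 15.1% of all tested probe sets. The 2 sets of probe sets are set side by side as a description. Without rin replicate 1, the array that stood furthest from its group, 64 members were called higher, 59 of them among the 61. That compares with 14.7% of all tested probe sets. Without wild-type replicate 1, 58 were called higher, 55 of them among the 61, against 11.5%.

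**Figure D2:**
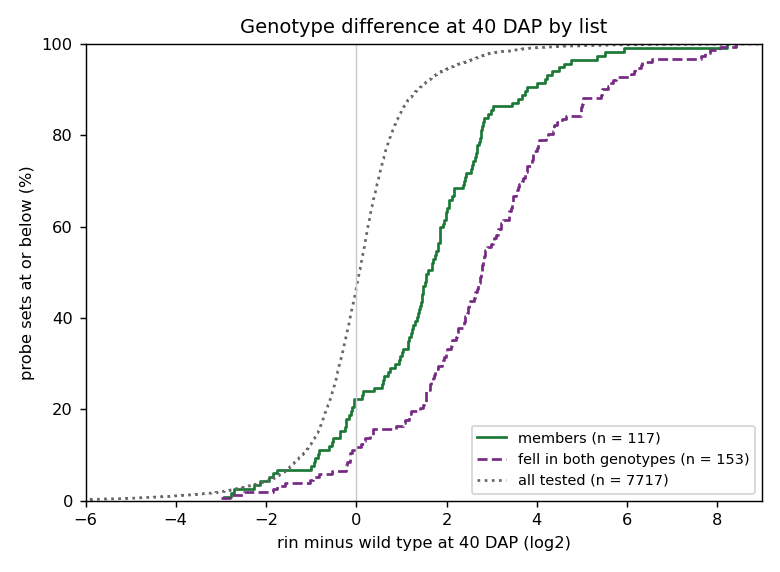
Cumulative share (%) of probe sets at or below a given rin minus wild type difference at 40 DAP (log2), for the 117 members, the 153 probe sets that fell in both genotypes and all 7717 tested. The median lies at 1.59 for members, 2.78 for those that fell in both genotypes and 0.07 for all tested.

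"Kept in rin" did not describe every member. At 35 DAP, 93 members had a rin mean within 1 log2 unit of the wild-type mean, 22 were lower in rin by more than 1, and 2 were higher by more than 1. That split uses arrays of the rule and is a description. Of the 93 that started alike, 59, or 63.4%, were called higher in rin at 40 DAP, with a median difference of 1.86 (limma, Benjamini-Hochberg). Of the 22 that started lower in rin, none was called and the median difference was -0.25, with 4 at an unadjusted p under 0.05. Over all tested probe sets, 15.1% were called higher and 10.8% lower, and 2988 of 7717 had an unadjusted p under 0.05. The 2 that started higher, both unnamed, were called. For one of them, with a difference of 1.86 ± 0.50 (SE, adjusted p = 0.0132), the call was lost without rin replicate 3 (0.0649) or wild-type replicate 1 (0.0609).

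**Figure D3:**
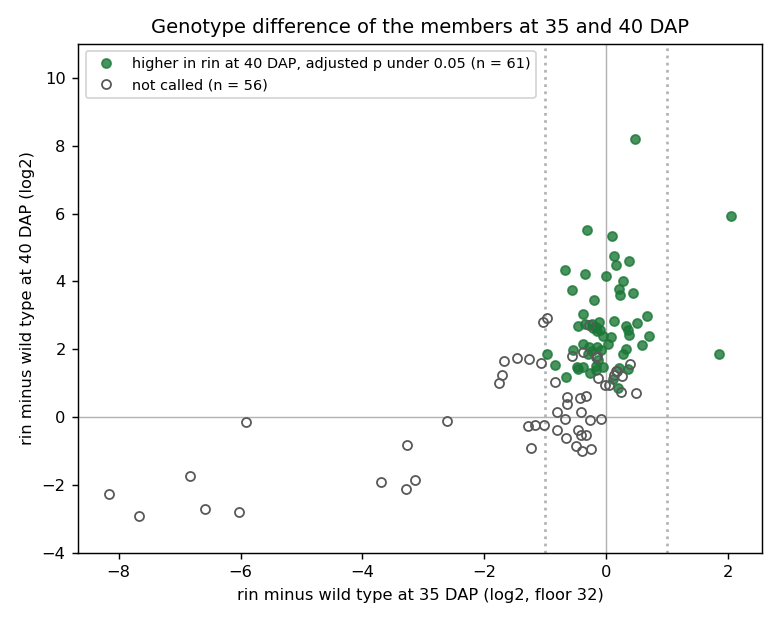
Difference between rin and wild type (log2) of each of the 117 members at 35 DAP (horizontal axis, floor of 32) and at 40 DAP (vertical axis); filled points are the 61 called higher in rin at 40 DAP and dotted lines mark 1 log2 unit at 35 DAP. The 22 members left of -1 hold none of the filled points, and 10 of them lie at -3.14 or lower with negative values at 40 DAP.

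Of those 22, 11 had a rin mean at 45 DAP no more than 1 log2 unit above the wild-type mean, measured with the floor of 32. In 2 of these 11, the rin signals at 45 DAP were at most 20.02, under that floor as in wild type. For the other 9, the label fails altogether. Their signals on all 9 rin arrays lay between 3.367 and 6.105, at or below the array's own 30th percentile, which is called dim here. They entered by the rule because a probe set at the floor at both ages shows no difference. In wild type they had signals of 70.5 to 23540 at 35 DAP, of 4.772 to 2213 on replicate 1 at 40 DAP, of at most 5.51 on replicates 2 and 3 at 40 DAP, and of at most 6.965 at 45 DAP. Thus they were seen only on the 3 youngest wild-type arrays and, for 8 of them, on 1 array at 40 DAP. Replicate 2 was the highest, replicate 3 the middle and replicate 1 the lowest of the arrays at 35 DAP for all 9. On the whole array 9 probe sets showed the pattern of those 8, and 8 of these were members. With this pattern a wild-type mean of at least 8 log2 units at 35 DAP suffices for membership, so the overlap follows from the rule.

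One of the 9 had the deepest wild-type difference of all members, at -8.15. Its wild-type signals were 3247, 23540 and 9852 at 35 DAP and 514.2, 5.09 and 5.111 at 40 DAP, and its rin means were 5.216 at 35 DAP and 4.873 at 45 DAP. The 2 members with the most negative differences at 40 DAP were also among the 9. The lower had 5.249, 5.37 and 5.249 in rin and 2213, 5.369 and 5.51 in wild type, a difference of -2.93 ± 1.54 (SE; limma, adjusted p = 0.173). The other had 3.397, 3.411 and 3.378 in rin and 1072, 3.441 and 3.487 in wild type, a difference of -2.79 (adjusted p = 0.186). In both, a single wild-type array carried the whole difference. None of the 9 has a gene symbol here. Leaving them out, 61 of 108 members were called higher in rin at 40 DAP, or 56.5%, against 15.1% of all tested probe sets. The median difference of these 108 was 1.75. The rin arrays at 40 DAP helped to pick the 9, and a probe set dim on them could hardly be called higher there. Both values are therefore a description.

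**Figure D4:**
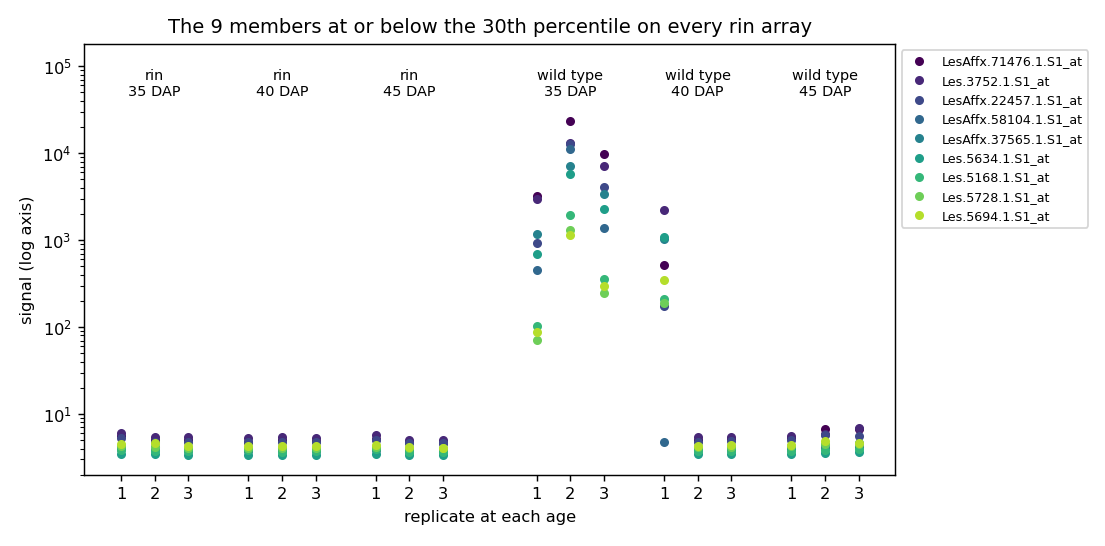
Signals (log axis) of the 9 members that were dim on every rin array, by genotype, age in DAP and replicate, 1 point per probe set and array. All rin values lie at 6.105 or lower, and values above 7 occur on the 3 wild-type arrays at 35 DAP and on wild-type replicate 1 at 40 DAP alone.

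Only 13 members, 11.1%, carry a gene symbol in the platform's annotation, close to the 9.0% of all probe sets. They are taken below by the role of the protein. Of the 13, 5, or 38.5%, were called higher in rin at 40 DAP, against 15.1% of all tested probe sets, and none was lower. For 7, or 53.8%, the rin arrays lay above the wild-type arrays without overlap, against 21.7% of all tested probe sets. No other probe set carries one of these 13 symbols, though most probe sets carry none.

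Neither of the photosynthetic members was called at 40 DAP. PsbQ encodes a subunit of the oxygen-evolving complex of photosystem II. Its signals in rin were 697.5, 2059 and 1948 at 35 DAP, 2159, 819.0 and 1990 at 40 DAP, and 2468, 1461 and 1629 at 45 DAP. In wild type they were 1885, 2104 and 1941, then 2226, 3626 and 2497, and at 45 DAP 56.66, 100 and 191.0. The genotypes overlapped at 35 DAP and not at 45 DAP, while at 40 DAP all wild-type arrays lay above the rin arrays. The difference at 40 DAP was -0.84 ± 0.48 (SE; limma, adjusted p = 0.21), and the wild-type signal had not yet declined at that age.

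CAB6A encodes a chlorophyll a/b-binding protein of photosystem I. Signals in rin were 780.6, 517.5 and 2264 at 35 DAP, 247.7, 666.5 and 407.1 at 40 DAP, and 77.14, 1324 and 1357 at 45 DAP. Wild-type fruit had 1892, 1127 and 2269, then 123.9, 947.0 and 1236, and at 45 DAP 4.601, 7.207 and 10.14, all dim. Replicate 1 of rin at 45 DAP lay well under the other two, still above every wild-type array of that age. The difference at 40 DAP was -0.37 ± 1.01 (SE; adjusted p = 0.815), with wide overlap.

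Cry1b, a cryptochrome that senses blue light, was 6.30-fold higher in rin at 40 DAP. Rin fruit had signals of 391.0, 457.9 and 461.3 at 35 DAP, 412.4, 441.7 and 733.0 at 40 DAP, and 172.0, 234.5 and 263.7 at 45 DAP. Wild-type fruit had 536.4, 358.0 and 601.8, then 120.0, 31.85 and 139.5, and 6.841, 49.43 and 6.709 at 45 DAP. The genotypes were mixed at 35 DAP and separate at both later ages. At 40 DAP the difference was 2.66 ± 0.65 (SE; limma, adjusted p = 0.00802), or 3.95-fold without wild-type replicate 2. In rin the signal was lower at 45 DAP, and Cry1b is the member nearest to the lower limit of the rule.

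The largest differences among named members were those of GP1 and EXP5, both of the cell wall. GP1 encodes the beta subunit that binds polygalacturonase in the wall, and it was among the brightest members. It had signals of 16070, 13800 and 14560 in rin at 35 DAP, 11060, 13940 and 13090 at 40 DAP, and 6088, 10800 and 10890 at 45 DAP. The wild-type values were 12790, 11920 and 12990 at 35 DAP, 646.1, 1115 and 1595 at 40 DAP, and 35.19, 44.59 and 153.0 at 45 DAP. Wild-type fruit lost signal in 2 steps of similar size on the log scale, 46.8% of it by 40 DAP. At 40 DAP rin stood at 12700 ± 1483 and wild type at 1119 ± 475 (SD, n = 3 each), a 12.1-fold difference of 3.59 ± 0.43 log2 units (SE; limma, adjusted p = 5.29e-05).

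EXP5 is an expansin, a protein that loosens walls as cells grow. Its rin signals were 1818, 1864 and 2434 at 35 DAP, 1093, 2455 and 2293 at 40 DAP, and 475.4, 1733 and 1786 at 45 DAP. Its wild-type signals were 2101, 1460 and 1939, then 23.22, 126.8 and 186.2, and 7.242, 5.314 and 19.07 at 45 DAP. Of the wild-type decline measured down to the floor of 32, 74.1% had taken place by 40 DAP, whereas the lowest rin array at that age still gave 1093. All wild-type signals at 45 DAP lay under that floor, so the later decline was cut off. The difference of 4.48 ± 0.69 (SE; limma, adjusted p = 0.000344) is 22.4-fold, or 11.9-fold without wild-type replicate 1 and 33.8-fold without wild-type replicate 3.

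The xyloglucan-modifying enzyme tXET-B2 entered the list with replicates that did not agree among themselves. Rin fruit had 6.701, 2919 and 319.9 at 35 DAP, 41.32, 608.2 and 140.4 at 40 DAP, and 5.342, 1205 and 885.4 at 45 DAP. In wild type the signals were 1946, 78.4 and 1065, then 14.03, 387.2 and 488.9, and 23.44, 122.7 and 24.18. Replicate 1 of rin was dim at 35 and 45 DAP, while the other two rin arrays of those ages were not. The difference at 40 DAP was 0.14 ± 2.29 (SE; adjusted p = 0.973).

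TUB, a tubulin of the microtubules that guide wall deposition, had 2340, 2080 and 1622 in rin at 35 DAP, 1453, 3138 and 1910 at 40 DAP, and 972.4, 1413 and 1827 at 45 DAP. Its wild-type values were 2468, 2290 and 1935, then 305.8, 525.5 and 743.2, and 8.818, 9.005 and 71.81. The genotypes overlapped at 35 DAP and were separate afterwards. At 40 DAP it was 4.18-fold higher in rin, a difference of 2.06 ± 0.61 (SE; limma, adjusted p = 0.0221). The call was lost without rin replicate 2 (0.0802), without rin replicate 3 (0.0568) or without wild-type replicate 1 (0.0897).

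For both lipid members most of the wild-type decline came after 40 DAP. The lipid transfer protein gene ltpg1 had rin signals of 11280, 6464 and 9361 at 35 DAP, 12030, 9450 and 9483 at 40 DAP, and 12300, 11970 and 12920 at 45 DAP. Wild-type fruit had 7560, 11450 and 9380, then 15210, 8399 and 9466, and 28.2, 62.89 and 2113 at 45 DAP. Its signals at 40 DAP overlapped, with a difference of -0.06 ± 1.01 (SE; adjusted p = 0.975). At 45 DAP replicate 3 of wild type was far above the other two wild-type arrays.

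LOX1.1 encodes a lipoxygenase, an enzyme that oxidises polyunsaturated fatty acids. In rin it had 12660, 3678 and 4012 at 35 DAP, 8729, 8619 and 9532 at 40 DAP, and 5887, 5481 and 6063 at 45 DAP. Wild-type signals were 4580, 7289 and 5870, then 5764, 6442 and 2697, and 163.9, 598.9 and 434.1. At 40 DAP the rin arrays lay above the wild-type arrays without overlap, yet the difference of 0.95 ± 0.48 (SE; limma, adjusted p = 0.16) did not pass the threshold. With array quality weights it was 1.62 and passed (adjusted p = 0.00229).

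LOC543809 encodes an inositol phosphate synthase, which makes the precursor of inositol. Its signals in rin were 1769, 562.8 and 2160 at 35 DAP, 3060, 1440 and 810.9 at 40 DAP, and 1450, 2364 and 2231 at 45 DAP. Wild-type fruit had 1200, 1159 and 2048, then 458.6, 406.0 and 583.6, and 54.7, 28.79 and 29.26. All rin arrays were above all wild-type arrays at 40 DAP, though the rin arrays themselves were widely spread. The difference of 1.68 ± 0.51 (SE; limma, adjusted p = 0.0237) is 3.20-fold. It was not called without rin replicate 1 (0.0989), wild-type replicate 1 (0.0609) or wild-type replicate 2 (0.0668), with the 6 arrays at 40 DAP alone (0.0634), or with array quality weights, where the difference was 0.91 (0.0652).

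TFT6 is a 14-3-3 protein, a family that binds phosphorylated partner proteins. It had 426.5, 910.4 and 626.0 in rin at 35 DAP, 297.2, 549.6 and 806.8 at 40 DAP, and 445.1, 380.5 and 343.0 at 45 DAP. The wild-type signals were 689.2, 566.7 and 371.9, then 250.8, 142.2 and 776.8, and 21.12, 26.75 and 76.81. At 40 DAP the genotypes overlapped and differed by 0.75 ± 0.58 (SE; adjusted p = 0.361).

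For LOC544187 and LOC778315 no role is given here. LOC544187, one of the brightest members, had 20900, 17350 and 14400 in rin at 35 DAP, 14160, 15200 and 15280 at 40 DAP, and 12430, 8217 and 9382 at 45 DAP. Wild type had 15930, 14900 and 15950, then 6771, 8523 and 3381, and 424.8, 2755 and 524.8. Its arrays did not overlap at 40 DAP, but the difference of 1.36 ± 0.51 (SE; limma, adjusted p = 0.0597) lay just outside the threshold. It was called without wild-type replicate 2 (1.64, adjusted p = 0.0495), with the 6 arrays at 40 DAP alone (1.36, 0.0415) and with array quality weights (1.99, 0.00158), and was 0.97 (0.217) without wild-type replicate 3.

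LOC778315 had 1429, 1334 and 3447 in rin at 35 DAP, 496.7, 1824 and 1060 at 40 DAP, and 470.2, 2020 and 2335 at 45 DAP. Wild-type signals were 3556, 4207 and 3271, then 8.916, 451.0 and 546.9, and 142.6, 87.59 and 188.9. One wild-type array at 40 DAP was dim, and another lay above the lowest rin array. The difference of 2.92 ± 1.15 was not called (SE; limma, adjusted p = 0.072) and rested on that dim array, wild-type replicate 1: without it the difference was 0.99 (0.315), and with array quality weights 1.21 (0.132). It was called at 3.82 without wild-type replicate 2 (0.0359), at 3.96 without wild-type replicate 3 (0.0281) and at 2.92 with replicate number as a block (0.041).

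**Figure D5:**
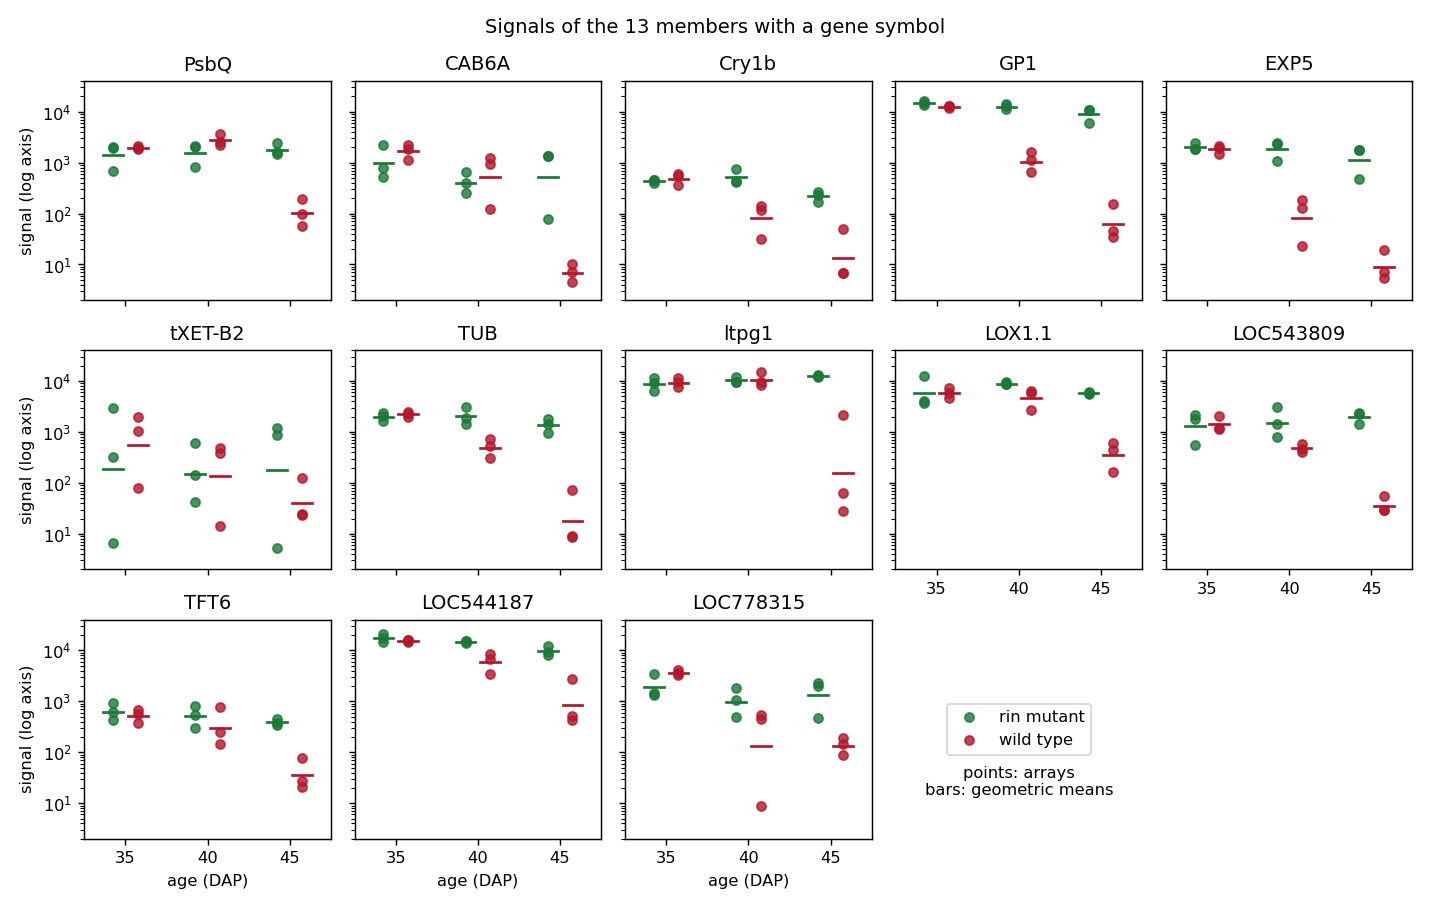
Signals (log axis) of the 13 members with a gene symbol at 35, 40 and 45 DAP, rin left and wild type right at each age, 1 point per array with a bar at the geometric mean of 3 arrays. GP1 and EXP5 separate most at 40 DAP, PsbQ in rin lies under wild type at 40 DAP and above it at 45 DAP, and the arrays of tXET-B2 are spread over more than 100-fold within rin.

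The other 104 members carry no gene symbol here. Of them 56, or 53.8%, were called higher in rin at 40 DAP, against 15.1% of all tested probe sets. The most different had 1576, 3549 and 4596 in rin and 7.513, 10.73 and 12.44 in wild type, all 3 of the wild-type signals dim. It was at least 225-fold higher in rin, with the dim signals raised to their arrays' 30th percentile, and passed the test (limma, adjusted p = 6.91e-08). The fitted difference of 8.20 ± 0.51 (SE) rests on signals in the dim range. At 35 DAP the same probe set had 2867, 1361 and 1631 in rin and 1133, 1699 and 1247 in wild type, which overlap. Its rin signals at 45 DAP were 362.4, 1461 and 1596, with replicate 1 the lowest.

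The next, one of the 2 that started higher in rin, had 2721, 960.1 and 3189 in rin and 8.751, 145.3 and 28.88 in wild type at 40 DAP. The difference was 5.93 ± 0.84 (SE; limma, adjusted p = 0.000194), with 1 dim wild-type array among the 3, replicate 1. Without that array it was 4.97 (adjusted p = 0.000814) and still called. Without wild-type replicate 2 it was 6.99 (adjusted p = 3.39e-05). This member was brighter in rin from the start, with 2001, 1731 and 1207 in rin and 502.6, 278.1 and 417.3 in wild type at 35 DAP. Rin and wild type thus differed without overlap before the wild-type decline.

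Members differed in when the wild-type signal went down. By 40 DAP, 66 members had lost at least 50% of their log2 decline and 51 less than that, with a median share of 55.3%. Signals under 32 were set to 32 for these shares, so a decline below that floor was not counted. In the wild-type means the median step was -2.07 between 35 and 40 DAP and -1.69 between 40 and 45 DAP. For 5 members, PsbQ and ltpg1 among them, the mean at 40 DAP was not below that at 35 DAP. Of the named members, Cry1b (69.5%), EXP5 (74.1%) and LOC778315 (87.9%) were early and the other 10 late. Among early members 42 of 66 (63.6%) were called higher in rin at 40 DAP, and among late members 19 of 51 (37.3%), against 15.1% of all tested. That split uses the same wild-type arrays as the calls and is a description. The 153 probe sets that fell in both genotypes had a median share of 84.5% by 40 DAP, with 125 early and 28 late. Their median wild-type mean at 45 DAP was 5.0 log2 units, at the floor, against 5.46 for the members, so part of their later decline was cut off.

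In rin the members' means at 40 DAP lay within 1 log2 unit of those at 35 DAP for 107 of 117, lower for 8 and higher for 2. Over all tested probe sets that held for 7270 of 7717, so staying level in rin to 40 DAP was common on the array. The rule did not use the rin arrays at 40 DAP, but it fixed both ages around them.

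Genes related to the named members were counted in the same test at 40 DAP, where 15.1% of all tested probe sets were called higher and 10.8% lower. Of 9 photosystem and light-harvesting genes tested, none was called higher in rin and 1, the plastocyanin gene PETE, was lower. PETE averaged 624 ± 183 in rin and 1914 ± 161 in wild type (SD, n = 3 each), a difference of -1.66 (limma, adjusted p = 0.000464). CAB4, another light-harvesting gene, was lower at 45 than at 35 DAP in rin (-1.45) as well as in wild type (-3.08), and therefore is no member. PSBO and PSBP, which sit beside PsbQ in the oxygen-evolving complex, had wild-type differences of only -0.28 and -0.32 between these ages, against -4.27 for PsbQ. Of 8 light receptor and light signalling genes, 1 was called higher, Cry1b itself. Its paralog CRY1A had a difference of -0.50 (adjusted p = 0.5) and CRY2 one of 0.76 (adjusted p = 0.091).

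Among 9 tested expansins, EXP5 and EXPA3 were higher in rin and EXP1, the ripening expansin, was lower. EXPA3 averaged 1657 ± 243 in rin and 660 ± 403 in wild type (SD, n = 3 each), a difference of 1.49 (limma, adjusted p = 0.00276). It lay just outside the rule, at -1.02 in rin and -3.15 in wild type between 45 and 35 DAP. EXP1 had a difference of -4.76 (adjusted p = 0.0107), which was -5.50 without rin replicate 1 and -4.13 without wild-type replicate 2, and its call was lost without rin replicate 3 (-3.70, 0.0635). None of 8 tested xyloglucan endotransglucosylases was called in either direction. Of 5 tested pectin-modifying genes, GP1 and PMEU1 were higher and PG2 lower. The pectin methylesterase PMEU1 had a difference of 4.24 (adjusted p = 0.0461), whose call was lost without rin replicate 2 or 3 or wild-type replicate 1 or 3 (adjusted p 0.0694 to 0.219) and whose difference ran from 2.26 without wild-type replicate 1 to 5.89 without wild-type replicate 2. PG2 had 432 ± 456 in rin and 18590 ± 778 in wild type at 40 DAP (SD, n = 3 each).

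Of 7 tested lipoxygenase and oxylipin genes none was called higher in rin, and loxC (-5.28), TomloxE (-3.46) and the hydroperoxide lyase HPL (-1.48) were lower (limma, adjusted p of 0.00103, 1.86e-05 and 0.00078). The loxC difference was -6.37 without rin replicate 1 and -4.34 without rin replicate 3, both still called. Of 3 lipid transfer protein genes none was called. Of 8 14-3-3 genes, TFT9 (0.85) and tft10 (0.66) were higher in rin and TFT7 (-1.81) and LOC543565 (-1.43) lower. Of 3 tested inositol phosphate genes, LOC543809 and IMP1 (3.51, adjusted p = 0.000262) were higher, and IMP3 (-0.86, adjusted p = 0.0135) was lower, a call lost without rin replicate 3 (0.0592). Of 9 ripening markers, 8 were lower in rin at 40 DAP and none is a member. The marker not called was NOR, with -2.75 (adjusted p = 0.0505), and the call of E8 (-2.67) was lost when any of the 6 arrays was left out (adjusted p 0.0651 to 0.0966).

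Some members may measure the same target more than once, judged by their IDs alone. By the first part of their IDs the 117 probe sets fall on 109 clusters of transcripts, and 8 clusters hold 2 members each. Both partners were called higher in rin at 40 DAP in 4 of these pairs, with differences of 2.76 and 2.43, 2.68 and 2.58, 2.01 and 2.16, and 1.52 and 1.87. In 3 pairs only 1 partner passed the threshold, with the same direction in both: 1.47 against 1.25, 1.54 against 1.03, and 1.99 against 2.80. In the last pair neither was called (-0.22 and -0.25). Of the members, 8 end in _s_at, the suffix of probe sets that can detect several related transcripts, which is 6.84% against 1.22% of all probe sets. The signals of these 8 may therefore mix near-identical genes.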

How the data were processed

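Fruit pericarp RNA of 3 arrays in each of 6 groups was measured on the Affymetrix tomato array. The intensity values, linear and with 1 value for a probe set on each array, were deposited by the authors, who computed them with GCOS per the submitters' processing notes; its version and scaling target are not given in the sources used here. All 18 value columns were used.

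The members, the gene lists and the split by starting level were chosen with earlier results of these data known. Members were found as described in the report. For the test, log2 of the deposited intensity was fitted without further normalization for all 18 arrays with limma 3.58.1 (lmFit, eBayes with a variance trend) in R 4.3.3, each of the 6 groups having its own mean. Of 10209 probe sets, 108 controls were left out, and 2384 more as dim: fewer than 3 of the 18 arrays gave them a signal above that array's 30th percentile. The remaining 7717 were tested. Tests were two-sided, with Benjamini-Hochberg adjustment over all 7717 and a threshold of 0.05. An exact test on single probe sets with 3 against 3 arrays cannot go below p = 0.10. The fit was tested on simulated data. Differences are rin minus wild type. Where all arrays of the dimmer group were dim, a fold is given as at least the brighter geometric mean over the dimmer one with dim signals raised to that percentile. Tables were made with Python 3.11.15.

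Gene symbols came from the platform annotation of 2007, updated where their Entrez identifiers (885) were found in RefSeq's genes for SLM_r2.1: 909 probe sets have 1 symbol, 0 have several and 9192 are unnamed here. All members with a symbol are named, besides the 2 unnamed members with the largest and the 2 with the smallest difference at 40 DAP and the 2 probe sets on either side of each limit; other probe sets were named after their values were seen. Lists by gene description and promoter motifs, planned at first, could not be applied because the tables used hold no descriptions or sequences, and symbol lists made after the files were seen took their place. Same-numbered rin and wild-type samples are different plants, and the fit did not pair them. At 40 DAP their deviations from the group means correlated at 0.075, -0.128 and -0.074. Differently numbered samples gave -0.149 to 0.188, so this check cannot exclude a batch shared by number. Alternatives were other scalings, floors, filters, limits, models and left-out arrays.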

Additional observations from a re-analysis of the deposited data

How the results depend on the processing

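The number of members called higher in rin at 40 DAP stayed between 45 and 77 under all 31 alternatives, against 61, and the median difference between 1.43 and 1.68 under 10. It was 53 with the 6 arrays at 40 DAP alone, 75 with array quality weights (and 2 lower), and 49 to 64 with 1 of these arrays left out. Leaving out an array of the rule gave 103 to 152 members; counting calls on those lists, an alternative chosen after seeing the data, gave 51 to 77. With replicate number as a block, 65 members were called, including all 61, though the labels do not state a pairing by number. With the title code as a random block, the same 61 were called. No result reversed.

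Over all probe sets, the counts called higher and lower in rin were 575 and 500 with the 6 arrays alone, 2163 and 1801 with array weights, 617 and 456 at an adjusted p under 0.01, and 713 to 1131 and 521 to 866 with 1 array left out, lowest without rin replicate 3. The number of members was 74 with a floor of 64, 302 and 47 with wild-type limits of -2 and -4, and 60 and 204 with rin limits of 0.5 and 2; this follows from the rule's own construction. The cause of the other movements was not tested. Array quality weights also moved the uncalled differences of TFT6 to 0.08, CAB6A to -1.43 and tXET-B2 to -1.54. The 3 arrays in each group limit the precision of single members, and declines below the floor of 32 were not measured.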
